A study of Mus musculus with 22 samples.

Results

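The Myc and Mxd network is a family of transcription factors that compete for a shared partner. Myc and N-Myc (Mycn) pair with Max, bind the E-box in DNA and raise transcription of genes for growth, nucleotide synthesis and ribosome production. Mxd1, Mxd3, Mxd4, Mxi1 and Mnt also pair with Max, recruit the Sin3 corepressors with histone deacetylases and lower transcription from E-boxes. In fibroblasts Myc is known as an early gene of the serum response, and several Mxd genes are known for their expression as cells leave the cycle.

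The 8 genes Myc, Mycn, Max, Mxd1, Mxd3, Mxd4, Mxi1 and Mnt were followed here, out of 18193 genes with a probe set of their own. A probe set is a group of short probes against a transcript on an Affymetrix mouse genome array. Every probe set that the platform annotation gives to exactly 1 gene, that gene being a member, was taken. This gave 19 probe sets of 45037 tested: 1 for Myc, 3 for Mycn, 1 for Max, 3 for Mxd1, 3 for Mxd3, 4 for Mxd4, 2 for Mxi1 and 2 for Mnt. None of the 19 was listed for another gene as well.

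The arrays measured total RNA of mouse embryonic fibroblasts (MEFs, cells grown from embryos) 7 days after infection with an adenovirus. The 5 oncogene arrays came from cells with a conditional mutant oncogene that Cre adenovirus switched on. The 5 Wt1-null arrays came from Wt1f/f cells whose Wt1 gene, encoding a zinc finger transcription factor, Cre adenovirus was used to delete. The 7 double arrays came from cells in which Cre adenovirus was used for both changes. The 5 control arrays came from cells labelled wild type that received a GFP adenovirus. Virus and genotype therefore cannot be told apart in any comparison with control, whereas comparisons among the other 3 groups are Cre against Cre. The arrays fall into 3 runs of accession numbers, and what the runs stand for is not given in the labels. The first holds 1 oncogene and 2 Wt1-null arrays, the second 3 Wt1-null and 1 control array, and the third 4 oncogene, all 7 double and 4 control arrays. No run holds both double and Wt1-null arrays, so run and group cannot be told apart in double against Wt1-null except through the other groups. Wt1-null and control arrays share only the second run, with its 1 control array. Nothing in the labels says that the arrays of a group are from different embryos or cultures. The spread behind each p-value is that between these arrays and may be technical. Values are deposited RMA levels, a normalized log2 probe signal on which a difference of 1 is a factor of 2. The RNA was from whole cultures, so fewer cells of a type and less RNA per cell cannot be told apart.

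Some facts of the whole series touch the results. Array medians lay between 6.23 and 6.33. All 13 fibroblast markers lay above the background range of 3.65 to 5.06, the range that 3 Y-linked genes showed in 9 arrays high in the X-inactivation RNA Xist. Such arrays were 0 of 5 oncogene, 2 of 5 Wt1-null, 5 of 7 double and 2 of 5 control arrays. Wt1-null replicate 2 was nearly identical to double replicate 2 (correlation 0.998, SD of their difference 0.152), closer than to any array of its own group. Wt1-null replicates 3 and 4 were also nearly identical (0.998, SD of the difference 0.161), although other arrays differed from their closest array by an SD of 0.243 or more. Double replicate 4 and oncogene replicate 4 stood farthest apart from the rest, correlating with the other arrays at 0.940 and 0.963 on average. Where these arrays move a result most, the value without them is given as well. Of the marker lists of other cell types, 2 of 8 leukocyte, 3 of 6 endothelial, 1 of 7 epithelial, 1 of 6 skeletal muscle, 2 of 6 neural and 1 of 5 chondrocyte markers lay within the background range on average. These included the defining markers Ptprc and Itgam (leukocytes), Pecam1 (endothelium) and Cdh1 (epithelium). Other markers lay above it, among them Csf1r at 7.30 (leukocytes), Kdr at 7.17 (endothelium), Epcam at 8.40 and Krt18 at 6.82 (epithelium), the last with 11.08 in its highest array. Muscle Acta1 at 11.05, neural Map2 at 8.75 and cartilage Sox9 at 7.87 did too, so these lists cannot be called absent.

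Promoters are shown for the 4 members with a called probe set. For Mycn, Mnt and Mxd4 not all probe sets differed in the same direction in double against control. They were taken from RefSeq (build GRCm38.p6) as the 250 bases before and the first 50 bases of the annotated transcript, 5′ to 3′ on the gene's strand. Such windows were found for 7 of the 8 genes, 9 windows in all, and the gene without one was Myc. Capitals mark the E-box CACGTG in Mnt and Mxd4, the E2F letters TTTGGCGC or TTTCGCGC in Mycn, and the GC box GGGCGG in Mxd3, each searched on both strands. The windows are chr12:12941787-12942086 on the minus strand for Mycn, chr11:74830674-74830973 on the plus strand for Mnt, chr5:34187661-34187960 on the minus strand for Mxd4 and chr13:55329682-55329981 on the minus strand for Mxd3.
Mycn: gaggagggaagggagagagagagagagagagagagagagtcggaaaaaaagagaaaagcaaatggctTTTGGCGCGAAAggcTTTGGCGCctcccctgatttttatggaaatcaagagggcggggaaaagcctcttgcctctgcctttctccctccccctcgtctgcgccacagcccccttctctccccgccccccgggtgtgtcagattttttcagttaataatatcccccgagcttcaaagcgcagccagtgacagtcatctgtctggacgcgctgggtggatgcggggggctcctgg
Mnt: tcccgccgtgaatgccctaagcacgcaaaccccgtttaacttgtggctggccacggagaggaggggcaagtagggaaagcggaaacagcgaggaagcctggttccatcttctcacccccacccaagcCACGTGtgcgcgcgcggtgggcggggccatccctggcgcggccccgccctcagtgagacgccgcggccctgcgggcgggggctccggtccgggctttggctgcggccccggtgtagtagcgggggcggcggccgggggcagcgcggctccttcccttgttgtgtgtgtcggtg
Mxd4: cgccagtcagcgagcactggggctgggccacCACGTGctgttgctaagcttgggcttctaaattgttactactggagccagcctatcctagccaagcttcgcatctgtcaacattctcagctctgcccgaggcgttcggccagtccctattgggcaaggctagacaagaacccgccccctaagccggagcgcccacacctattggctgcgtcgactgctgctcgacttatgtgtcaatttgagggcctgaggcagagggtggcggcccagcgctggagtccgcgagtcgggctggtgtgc
Mxd3: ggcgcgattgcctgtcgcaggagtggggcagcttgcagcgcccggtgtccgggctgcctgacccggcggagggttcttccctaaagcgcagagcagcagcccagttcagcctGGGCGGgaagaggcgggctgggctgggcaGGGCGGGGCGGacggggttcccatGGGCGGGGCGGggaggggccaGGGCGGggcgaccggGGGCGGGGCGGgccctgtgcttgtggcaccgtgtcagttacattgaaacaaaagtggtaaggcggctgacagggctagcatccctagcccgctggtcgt
The Mycn window held E2F letters beginning 183 and 168 bases before the start on its own strand. A match on the opposite strand, 179 bases before, overlaps the 183 match. Mnt held an E-box 123 bases before its start and Mxd4 219 bases before. The Mxd3 window held 8 GC boxes, some sharing a base, and had no match to the E-box or E2F letters. Of the 7 members with a window, 3 held the E-box, 1 the E2F letters and 6 the GC box. The GC box is thus not particular to Mxd3. It also occurs, unmarked here, in the windows of Mycn, Mnt and Mxd4. Among 32851 mouse windows of this length, 7.15% held the E-box, 0.813% the E2F letters and 35.7% the GC box. A match describes the letters and was not tested as a binding site.

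All 19 member probe sets had a mean over the 22 arrays above the background range, the lowest being Mycn probe set 1425922_a_at at 5.86. Myc, with a mean of 9.63, lay at the 84.5 percentile of all probe sets, and Max, with 7.24, at the 61.8 percentile. The called Mycn probe set 1417155_at was dimmer, with a mean of 6.39 at the 51.4 percentile. Its control mean of 6.00 lay below the lowest array median of 6.23. Probe sets differ in affinity, so these places do not rank the genes by RNA amount.

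In double against control 4 of 19 member probe sets passed an adjusted p of 0.05 by limma, against 4.01% of all probe sets, and in oncogene against control 1 of 19, against 1.07%. The called probe sets, 1 per gene, were higher for Mycn and Mnt and lower for Mxd3 and Mxd4 in double MEFs. In oncogene MEFs only that of Mxd4 was called, lower. For Mycn, Mnt and Mxd4 at least 1 other probe set differed in the opposite direction in double MEFs. In Wt1-null against control 0 of 19 passed, against 0.0422% of all probe sets, and 2 of 19 had an unadjusted p below 0.05 (11.0% of all probe sets). The groups did not overlap for 2 member probe sets in oncogene against control (4.79% of all probe sets), 1 in Wt1-null against control (4.36%) and 3 in double against control (3.38%). The median difference of the 19 was -0.09 in oncogene, -0.17 in Wt1-null and -0.09 in double MEFs against control, where that of all probe sets was -0.024, -0.031 and -0.025.

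**Figure D1:**
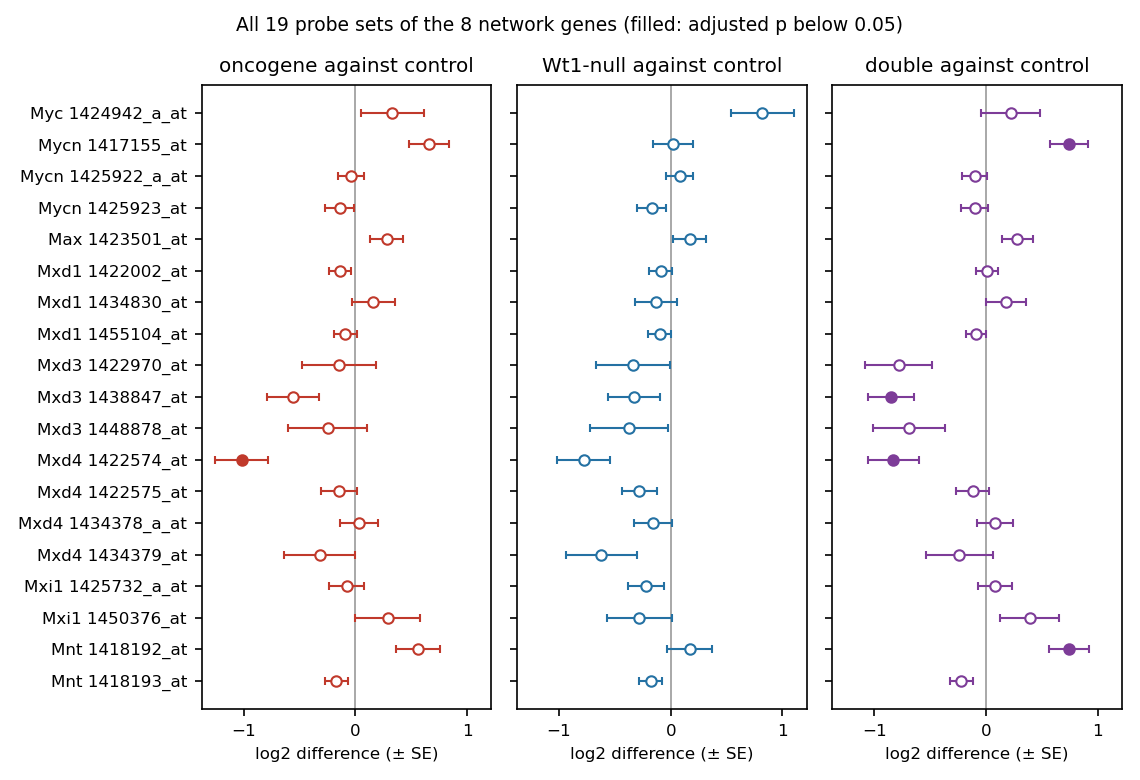
Log2 difference from control with its standard error for all 19 probe sets of the 8 network genes, in oncogene, Wt1-null and double MEFs (x axis, log2 units; 1 row per probe set). Filled points have an adjusted p below 0.05 by limma: 1 in oncogene, 0 in Wt1-null and 4 in double MEFs.

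Mycn encodes N-Myc, the Myc family member best known from embryonic progenitors and neuroblastoma. Its probe set 1417155_at read 6.50, 7.01, 6.44, 6.88 and 6.46 in the oncogene arrays. The Wt1-null arrays read 5.61, 6.62, 6.14, 5.98 and 5.73. The double arrays ran from 6.27 through a median of 6.79 to 7.13, and the control arrays read 5.99, 6.19, 5.91, 6.02 and 5.88. Every oncogene and every double array lay above every control array, and among Wt1-null arrays only replicate 2, the near-identical partner of a double array, lay above the controls' highest value.

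Mycn averaged 6.74 ± 0.32 in double (SD, n = 7) and 6.00 ± 0.12 in control arrays (SD, n = 5), and it rose by 0.74 ± 0.17 (SE, limma adjusted p = 0.0155). In oncogene arrays it averaged 6.66 ± 0.27 (SD, n = 5), 0.66 ± 0.18 above control, which did not pass (limma adjusted p = 0.0795). In Wt1-null arrays it averaged 6.02 ± 0.40 (SD, n = 5), 0.02 ± 0.18 from control (limma adjusted p = 0.977), and -0.13 ± 0.17 from it without replicate 2 (limma adjusted p = 0.823). The order of the levels was thus double, oncogene, Wt1-null and control. The step between double and oncogene was 0.08 ± 0.17, within the spread, and so was that between Wt1-null and control. Mycn was the only member probe set called in limma's F-test over the 4 groups (F = 10.93, adjusted p = 0.0205), a test that called 1.84% of all probe sets.

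Without Wt1-null replicate 2 the Mycn difference passed in further comparisons. It was then 0.87 ± 0.16 in double against Wt1-null (limma adjusted p = 0.00407, with 3.77% of all probe sets called). In oncogene against Wt1-null it was 0.79 ± 0.17 (limma adjusted p = 0.0302, 0.744% called), and in oncogene against control 0.66 ± 0.16 (limma adjusted p = 0.0372, 1.64% called). These 3 comparisons also passed without both Wt1-null replicate 2 and double replicate 2, with limma adjusted p-values of 0.00935, 0.0296 and 0.0361. With all arrays kept, double against Wt1-null was 0.72 ± 0.17 (limma adjusted p = 0.102) and oncogene against Wt1-null 0.64 ± 0.18 (limma adjusted p = 0.358). With the runs of accession numbers as a fixed block, which links double and Wt1-null arrays only through oncogene and control arrays, the Mycn difference in double against Wt1-null was 0.61 ± 0.29 (limma adjusted p = 0.771). Oncogene and Wt1-null arrays share only the first run, with 1 oncogene and 2 Wt1-null arrays. That block fit, with all arrays kept, called 0 members and 0 of all probe sets in oncogene against Wt1-null. The runs were not added to the fits without Wt1-null replicate 2.

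The other Mycn probe sets did not show this pattern. Probe set 1425923_at, the brightest for Mycn, averaged 7.49 ± 0.11 in oncogene, 7.46 ± 0.09 in Wt1-null, 7.53 ± 0.31 in double and 7.63 ± 0.15 in control arrays (SD). Probe set 1425922_a_at averaged 5.84 ± 0.25 in oncogene, 5.97 ± 0.18 in Wt1-null, 5.78 ± 0.12 in double and 5.88 ± 0.22 in control arrays (SD). Their differences from control lay between -0.17 and 0.08 and none passed. Which transcripts each probe set detects was not tested.

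Mnt encodes a Max partner present through the cell cycle that represses E-box genes. Its probe set 1418192_at read 8.94, 9.54, 10.20, 9.25 and 9.13 in the oncogene arrays. The Wt1-null arrays read 8.80, 9.21, 9.15, 9.02 and 8.93. The double arrays ran from 9.27 through a median of 9.49 to 10.31, and the control arrays read 8.88, 8.67, 8.76, 8.78 and 9.20. Every double array lay above every Wt1-null and every control array, and the highest values of the oncogene and double groups were their replicates 4, the arrays that stood apart from all others.

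Mnt averaged 9.59 ± 0.33 in double (SD, n = 7) and 8.85 ± 0.21 in control arrays (SD, n = 5), and it rose by 0.74 ± 0.18 (SE, limma adjusted p = 0.0264). Without oncogene replicate 4 and double replicate 4 the rise was 0.62 ± 0.11 (limma adjusted p = 0.00339, with 7.28% of all probe sets called). The oncogene arrays averaged 9.41 ± 0.49 (SD, n = 5), 0.56 ± 0.20 above control (limma adjusted p = 0.193), and 0.36 ± 0.12 above it without oncogene and double replicate 4 (limma adjusted p = 0.124). The Wt1-null arrays averaged 9.02 ± 0.16 (SD, n = 5), 0.17 ± 0.20 above control (limma adjusted p = 0.783). From high to low the order was double, oncogene, Wt1-null and control, with neighbours 0.18 ± 0.18, 0.39 ± 0.20 and 0.17 ± 0.20 apart, none of which passed. The step of 0.39 between oncogene and Wt1-null was 0.19 ± 0.12 without oncogene and double replicate 4 (limma adjusted p = 0.888). Double against Wt1-null was 0.57 ± 0.18 (limma adjusted p = 0.196), and 0.30 ± 0.31 with the runs of accession numbers as a fixed block (limma adjusted p = 0.914). The call in double against control was lost when any of control replicates 1 to 4 was left out (0.69 to 0.74, limma adjusted p from 0.0527 to 0.0800).

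The dimmer Mnt probe set 1418193_at went the other way. It averaged 6.61 ± 0.10 in oncogene, 6.60 ± 0.17 in Wt1-null, 6.56 ± 0.20 in double and 6.78 ± 0.14 in control arrays (SD). Its difference from control was -0.22 ± 0.10 in double arrays (limma adjusted p = 0.218) and -0.29 ± 0.09 without oncogene replicate 4 and double replicate 4 (limma adjusted p = 0.0491). The rise of Mnt is therefore a result of 1 of its 2 probe sets.

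**Figure D2:**
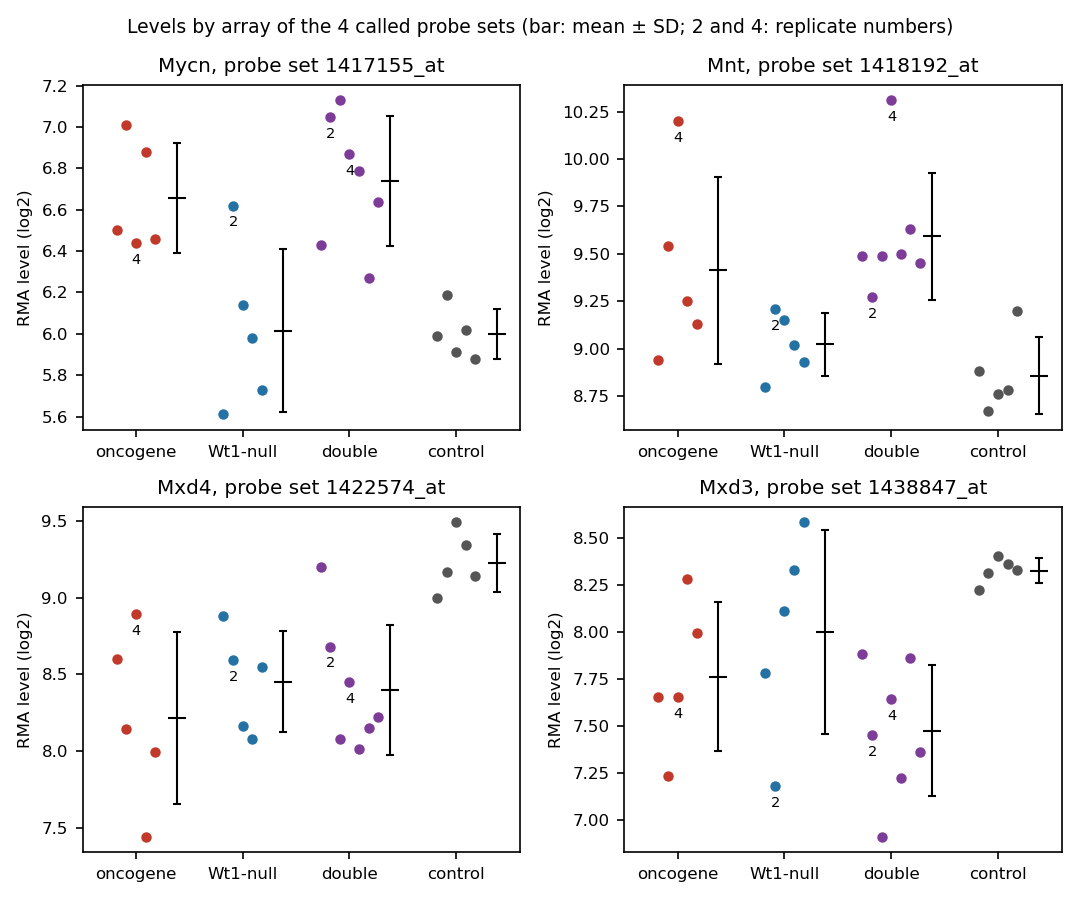
RMA level (log2, y axis) of the 4 called probe sets in each array, by group, with the group mean ± SD beside the points. The replicate numbers 2 and 4 mark Wt1-null and double replicate 2 and oncogene and double replicate 4. The double arrays lie above all controls for Mycn and Mnt and below all controls for Mxd3.

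Mxd4 encodes a repressor of the Mxd family known from resting and differentiating cells. Its probe set 1422574_at read 8.60, 8.14, 8.89, 7.44 and 7.99 in the oncogene arrays. The Wt1-null arrays read 8.88, 8.59, 8.16, 8.08 and 8.55. The double arrays ran from 8.01 through a median of 8.22 to 9.20, and the control arrays read 9.0, 9.17, 9.49, 9.34 and 9.14. All oncogene and all Wt1-null arrays lay below all controls, and of the double arrays only replicate 1 reached the control range.

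Mxd4 fell by 1.02 ± 0.24 on the log2 scale in oncogene arrays, with 8.21 ± 0.56 in oncogene and 9.23 ± 0.19 in control arrays (SD, n = 5 each, limma adjusted p = 0.0441). It fell by 0.83 ± 0.23 in double arrays, which averaged 8.40 ± 0.42 (SD, n = 7, limma adjusted p = 0.0404). In Wt1-null arrays the mean was 8.45 ± 0.33 (SD, n = 5), a difference of -0.78 ± 0.24 that did not pass (limma adjusted p = 0.285). From high to low the order was control, Wt1-null, double and oncogene. Double against Wt1-null differed by -0.05 ± 0.23 and double against oncogene by 0.19 ± 0.23, within the spread. The second of these was 0.35 ± 0.23 without oncogene and double replicate 4 and did not pass either. The oncogene call was held in 7 of 22 fits that left out an array each and lost in 15, and over all 22 the difference ran from -1.19 to -0.83. The double call was lost without double replicate 3, 5, 6 or 7 or any of the 5 controls, with a range of -0.96 to -0.77 over the 22. Every group that received Cre was lower than the GFP controls, a difference in which virus and genotype cannot be told apart.

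The brightest Mxd4 probe set, 1434378_a_at, averaged 10.31 ± 0.47 in oncogene, 10.12 ± 0.14 in Wt1-null, 10.36 ± 0.19 in double and 10.28 ± 0.25 in control arrays (SD). Its differences from control were 0.03, -0.16 and 0.08, with none called. Probe set 1434379_at averaged 9.20 ± 0.68 in oncogene, 8.90 ± 0.68 in Wt1-null, 9.28 ± 0.45 in double and 9.52 ± 0.27 in control arrays (SD). Probe set 1422575_at averaged 6.51 ± 0.31, 6.38 ± 0.22, 6.55 ± 0.15 and 6.66 ± 0.37 in the same groups. Both had lower means in all 3 Cre groups than in control, and none of these differences passed. The fall of Mxd4 thus stands on 1 of its 4 probe sets.

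**Figure D3:**
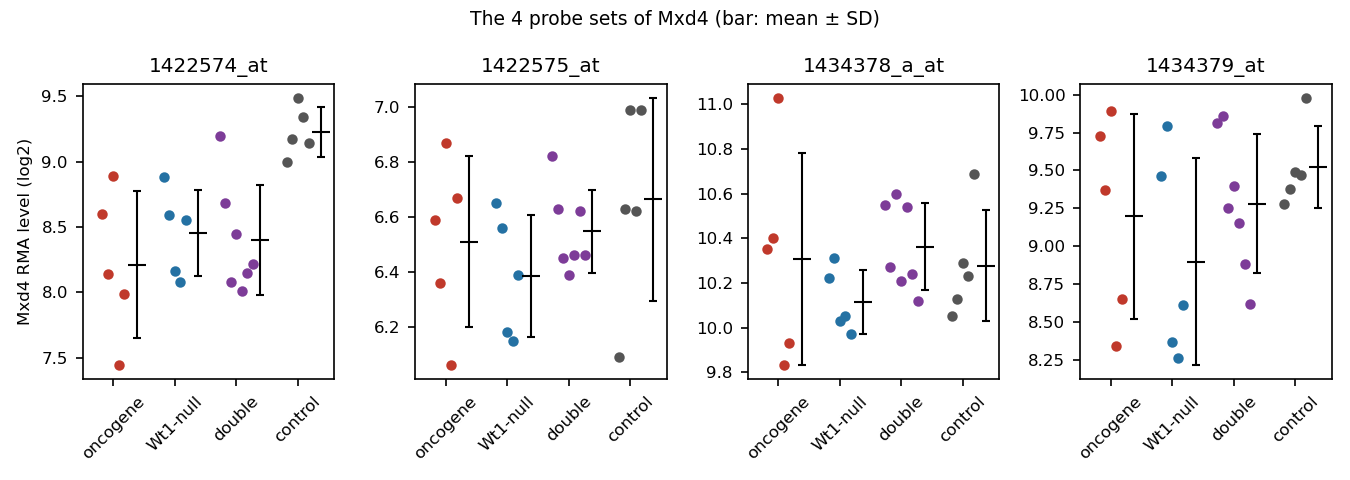
RMA level (log2, y axis, own scale in each panel) of the 4 Mxd4 probe sets in each array, by group, with mean ± SD. Only for 1422574_at do the oncogene and Wt1-null arrays lie wholly below the control arrays.

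Mxd3 encodes the Mxd protein known from cells in S phase, unlike its relatives. Its probe set 1438847_at read 7.65, 7.23, 7.65, 8.28 and 7.99 in the oncogene arrays. The Wt1-null arrays read 7.78, 7.18, 8.11, 8.33 and 8.58. The double arrays ran from 6.91 through a median of 7.45 to 7.88, and the control arrays read 8.22, 8.31, 8.40, 8.36 and 8.33. The controls were close together and all double arrays lay below them, while the oncogene and Wt1-null arrays reached into the control range.

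Mxd3 averaged 7.47 ± 0.35 in double (SD, n = 7) and 8.32 ± 0.06 in control arrays (SD, n = 5), and it fell by 0.85 ± 0.21 on the log2 scale (SE, limma adjusted p = 0.0259). The oncogene arrays averaged 7.76 ± 0.40 (SD, n = 5), -0.56 ± 0.23 from control (limma adjusted p = 0.264). The Wt1-null arrays averaged 8.0 ± 0.54 (SD, n = 5), -0.33 ± 0.23 from control (limma adjusted p = 0.612), and -0.12 ± 0.21 from it without Wt1-null replicate 2 (limma adjusted p = 0.870). From high to low the order was control, Wt1-null, oncogene and double, and no neighbours in it differed by a called amount. Without Wt1-null replicate 2 the difference in double against Wt1-null was -0.73 ± 0.19 (limma adjusted p = 0.0398), but it did not pass when double replicate 2 was left out as well. The call in double against control was lost without double replicate 3 or 5 or control replicate 2, 3 or 4 (-0.85 to -0.76, limma adjusted p from 0.0534 to 0.0710).

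The other Mxd3 probe sets had the same direction in double against control without passing. Probe set 1422970_at averaged 7.12 ± 0.58 in double and 7.90 ± 0.29 in control arrays (SD), a difference of -0.78 ± 0.30 (limma adjusted p = 0.164). Probe set 1448878_at averaged 7.80 ± 0.64 in double and 8.49 ± 0.26 in control arrays (SD), a difference of -0.69 ± 0.32 (limma adjusted p = 0.267). Of the 4 called members, Mxd3 was the only one whose probe sets all differed from control in the same direction in double MEFs.

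The arrays with high Xist were unevenly spread, so the level of Xist was added as a covariate, a choice made after the values were seen. In double against control Mycn then stayed called at 0.76 ± 0.18 (limma adjusted p = 0.0319). Mnt at 0.75 (limma adjusted p = 0.0519), Mxd4 at -0.89 (limma adjusted p = 0.0555) and Mxd3 at -0.77 (limma adjusted p = 0.0757) did not pass, nor did Mxd4 in oncogene against control at -0.95 (limma adjusted p = 0.0785). Within the largest run of accession numbers alone, 4 oncogene, 7 double and 4 control arrays, Mycn at 0.74 and Mxd3 at -0.87 passed in double against control (limma adjusted p = 0.0296 and 0.0321). Mxd4 at -0.89 and Mnt at 0.74 did not (limma adjusted p = 0.0802 and 0.0798). With the runs as a fixed block over all arrays, Mnt at 0.70 in double against control did not pass (limma adjusted p = 0.0546), nor did Mycn in the F-test (F = 6.02, adjusted p = 0.124).

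Mxd3 was then set against the mean level per array of 25 genes of DNA replication and mitosis. That mean ran from 10.23 to 11.11 in oncogene, 9.32 to 11.16 in Wt1-null, 8.97 to 10.80 in double and 10.17 to 10.67 in control arrays. Over 22 arrays Pearson's r was 0.859 for 1422970_at, 0.816 for 1448878_at and 0.697 for 1438847_at. Spearman's rho was 0.841, 0.774 and 0.693 in the same order. The 2-sided permutation p-values of r were 1e-05, the smallest that the permutations can give, 2e-05 and 0.00031, and after adjustment over the 3 relations 3e-05, 3e-05 and 0.00031. For rho they were 1e-05, 5e-05 and 0.0005. The permutations treated all 22 arrays as exchangeable, although arrays share groups and runs and some are nearly identical. These p-values may therefore be too small.

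Leaving out the arrays farthest from the median, double replicate 5 and Wt1-null replicate 2, gave r of 0.801, 0.745 and 0.609. Within the 15 arrays of that run of accession numbers r was 0.864, 0.809 and 0.572, and within the 7 double arrays 0.835, 0.820 and 0.479. Mxd3 was low where the replication and mitosis genes were low, and the probe set that was called followed them least closely. On that probe set the 5 controls, with list means of 10.17 to 10.67, read higher than the oncogene arrays in that range. Whether the Mxd3 difference in double MEFs goes beyond that of the list was not tested.

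**Figure D4:**
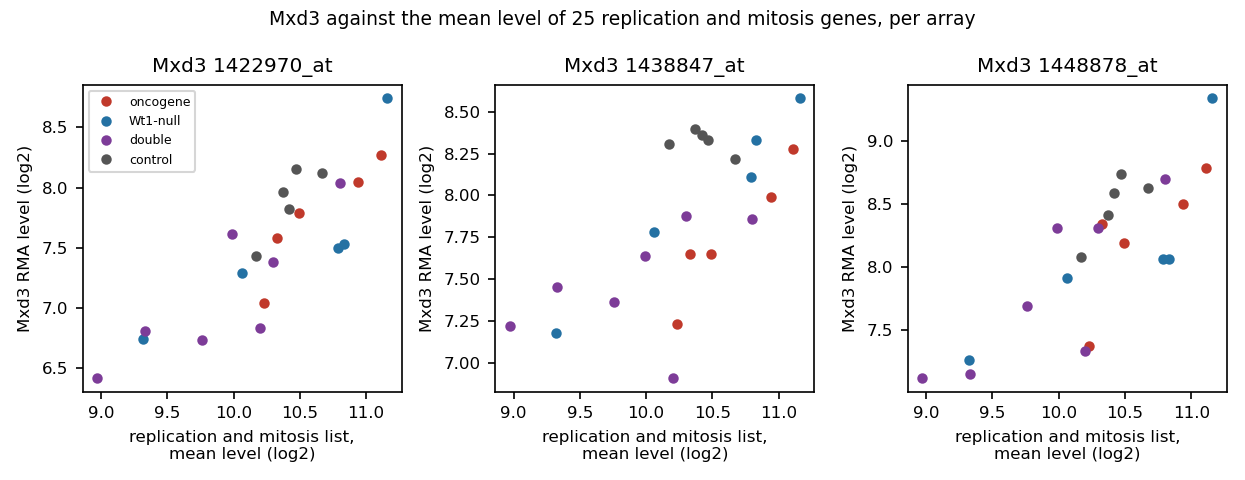
RMA level (log2, y axis) of the 3 Mxd3 probe sets against the mean level of 25 replication and mitosis genes (log2, x axis), 1 point per array, coloured by group. Arrays low on the x axis, from the double group and Wt1-null replicate 2, are also low in Mxd3, with r of 0.859, 0.697 and 0.816 from left to right.

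Myc itself had 1 probe set, 1424942_a_at, and no called difference. It read 9.07, 9.87, 8.97, 10.12 and 10.12 in the oncogene arrays. The Wt1-null arrays read 10.03, 9.41, 10.44, 10.36 and 10.36. The double arrays ran from 8.75 through a median of 9.50 to 10.10, and the control arrays read 9.62, 9.56, 9.46, 9.24 and 8.62. Of the Wt1-null arrays 4 of 5 lay above every control, and the exception was again replicate 2. Wt1-null and control arrays share only the second run of accession numbers, with 3 Wt1-null arrays and 1 control array. With the runs as a fixed block 0 members were called in Wt1-null against control, and 3 of all 45037 probe sets.

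Myc averaged 9.63 ± 0.57 in oncogene (SD, n = 5), 10.12 ± 0.43 in Wt1-null (SD, n = 5), 9.53 ± 0.44 in double (SD, n = 7) and 9.30 ± 0.41 in control arrays (SD, n = 5). The difference from control was 0.33 ± 0.28 in oncogene (limma adjusted p = 0.661), 0.82 ± 0.28 in Wt1-null (limma adjusted p = 0.321) and 0.22 ± 0.26 in double arrays (limma adjusted p = 0.721). Without Wt1-null replicate 2 the Wt1-null difference was 0.99 ± 0.28 and still did not pass (limma adjusted p = 0.271). From high to low the order was Wt1-null, oncogene, double and control, and the widest step in it, oncogene against Wt1-null at -0.49 ± 0.28, did not pass (limma adjusted p = 0.767). A fit with array weights called it in Wt1-null against control (1.02 ± 0.20, limma adjusted p = 0.00283), where 18.8% of all probe sets were called. Like the main fit, it counted the nearly identical Wt1-null replicates 3 and 4 as separate arrays. With these 2 averaged and no weights, 0 members were called in that comparison, and 4 of all 45037 probe sets. Weights and averaging were not combined.

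Max is the shared partner that every other member needs to bind DNA, and it had no called difference. Its probe set 1423501_at averaged 7.33 ± 0.29 in oncogene (SD, n = 5), 7.21 ± 0.28 in Wt1-null (SD, n = 5), 7.32 ± 0.21 in double (SD, n = 7) and 7.04 ± 0.23 in control arrays (SD, n = 5). The differences from control were 0.28 ± 0.15, 0.17 ± 0.15 and 0.28 ± 0.14, all groups overlapped and none passed (lowest limma adjusted p = 0.321).

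Mxi1, a Max partner that represses Myc targets, read 9.38, 9.71, 8.59, 8.53 and 8.72 on probe set 1450376_at in the oncogene arrays. The Wt1-null arrays read 8.82, 9.31, 7.87, 8.10 and 7.97. The double arrays ran from 8.65 through a median of 8.99 to 9.99, and the control arrays read 8.76, 8.85, 8.66, 8.43 and 8.76. Wt1-null replicates 3, 4 and 5 were lower than every array of the other groups, and replicates 1 and 2 were not. Replicates 3, 4 and 5 are the Wt1-null arrays of the second run of accession numbers, and replicates 1 and 2 those of the first. This split within the group therefore cannot be told apart from the run.

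Mxi1 averaged 8.99 ± 0.53 in oncogene, 8.41 ± 0.62 in Wt1-null, 9.08 ± 0.46 in double and 8.69 ± 0.16 in control arrays (SD). Wt1-null against control was -0.28 ± 0.29 (limma adjusted p = 0.744), -0.50 ± 0.27 without Wt1-null replicate 2 (limma adjusted p = 0.529) and -0.17 ± 0.30 with Wt1-null replicates 3 and 4 averaged (limma adjusted p = 0.894). The widest gap, 0.67 ± 0.26 in double against Wt1-null, did not pass (limma adjusted p = 0.284), nor did it without Wt1-null replicate 2, at 0.89 ± 0.25 (limma adjusted p = 0.0554). Its probe set 1425732_a_at averaged 7.43 ± 0.27, 7.29 ± 0.27, 7.59 ± 0.28 and 7.51 ± 0.16 in the oncogene, Wt1-null, double and control groups, with no called difference.

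**Figure D5:**
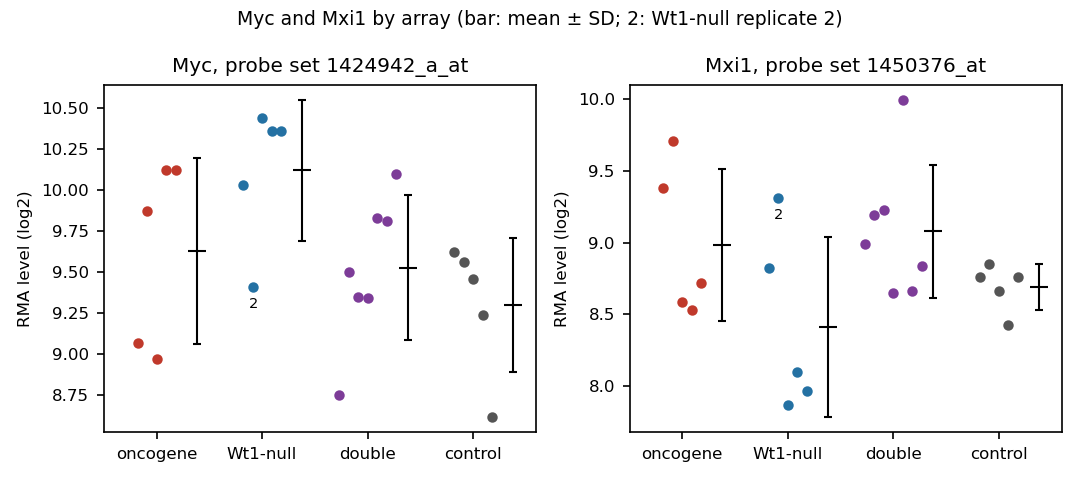
RMA level (log2, y axis) of Myc and of Mxi1 probe set 1450376_at in each array, by group, with mean ± SD; 2 marks Wt1-null replicate 2. Wt1-null arrays other than replicate 2 lie above all controls for Myc, while some oncogene and double arrays reach into their range. The 3 Wt1-null arrays that are low for Mxi1 are those of the second run of accession numbers.

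Mxd1, the founding Mxd repressor, known from differentiating cells, showed no called difference on 3 probe sets. The brightest, 1434830_at, averaged 7.65 ± 0.40 in oncogene, 7.36 ± 0.23 in Wt1-null, 7.67 ± 0.36 in double and 7.49 ± 0.20 in control arrays (SD). Probe set 1455104_at averaged 7.00 ± 0.24 in oncogene, 6.99 ± 0.09 in Wt1-null, 7.00 ± 0.13 in double and 7.09 ± 0.09 in control arrays (SD). Probe set 1422002_at averaged 6.11 ± 0.12, 6.15 ± 0.22, 6.25 ± 0.14 and 6.24 ± 0.15 in the same groups. All differences of Mxd1 from control lay between -0.14 and 0.18.

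Among the groups that all received Cre, no member probe set passed with all arrays kept. In double against oncogene 0 of 19 passed by limma, as did 0% of all probe sets, and 0 of 19 had an unadjusted p below 0.05 (3.52% of all probe sets). No member's groups were separate there, against 0.138% of all probe sets. In double against Wt1-null 0 of 19 passed (0.00666% of all probe sets), 5 of 19 had an unadjusted p below 0.05 (13.0%), and the groups did not overlap for Mnt 1418192_at alone (0.77%). In oncogene against Wt1-null 0 of 19 passed (0.00888%), 1 of 19 had an unadjusted p below 0.05 (7.27%) and 0 had separate groups (1.23%).

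The interaction is double minus Wt1-null, less oncogene minus control, and it asks whether the oncogene's effect depended on Wt1. No member passed by limma (0 of 19, against 0.00888% of all probe sets), and 2 of 19 had an unadjusted p below 0.05 (7.52%). These were Mxd4 1422574_at, at 0.96 ± 0.33, and Myc, at -0.92 ± 0.38, each with a limma adjusted p of 0.654. Because it contains the GFP controls, this term includes the change of virus.

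The other genes of the pathway come from lists chosen by function, each gene read by its brightest probe set. Of 10 related bHLH-zipper factors (such as Mga and Mlx, which share partners with the network) 0 were called by limma in any comparison. The same held for 9 measured corepressors recruited by Mxd proteins and Mnt and for 13 measured Myc coactivators and partners. At an unadjusted p below 0.05 these lists held 1, 2 and 4 genes in double against control and 0, 0 and 0 in double against oncogene, where the shares of all genes were 20.5% and 3.17%. They held 2, 2 and 5 genes in oncogene against control (15.5% of all genes). In Wt1-null against control they held 2, 1 and 4 (13.2% of all genes). In double against control, the comparison with the most calls, the median differences of these lists were -0.03, -0.02 and 0.14, where that of all genes was -0.022 and 5.18% of genes were called. Of 12 measured genes of Myc turnover 1 was called, in double against control. It was Huwe1, a ubiquitin ligase that acts on Myc proteins. Huwe1 averaged 11.01 ± 0.43 in double and 10.33 ± 0.28 in control arrays (SD), and it rose by 0.68 ± 0.17 (limma adjusted p = 0.0304). Of the 12 turnover genes, 2 in oncogene, 5 in Wt1-null and 3 in double against control had an unadjusted p below 0.05. The shares of all genes were 15.5%, 13.2% and 20.5%.

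Of 42 measured genes that Myc is known to activate, 20 were higher in oncogene than in control arrays, 21 in Wt1-null and 8 in double arrays. The median differences were -0.01, 0.00 and -0.13, where those of all genes were -0.03, -0.048 and -0.022. In double against oncogene 2 of 42 were higher, with a median of -0.12, where 53.2% of all genes were higher, and 1 of 42 had an unadjusted p below 0.05 (3.17% of all genes). The only one called in any comparison was Shmt2, the mitochondrial serine hydroxymethyltransferase, with 10.75 ± 0.65 in double and 11.88 ± 0.17 in control arrays (SD). It fell by 1.13 ± 0.29 on the log2 scale (limma adjusted p = 0.0318). The mean level of the list per array ran from 10.89 to 11.25 in oncogene, 10.88 to 11.34 in Wt1-null, 10.83 to 11.00 in double and 10.80 to 11.35 in control arrays, so all groups overlapped.

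Of the 25 replication and mitosis genes 22 were higher in oncogene, 14 in Wt1-null and 3 in double than in control arrays, where 43.8%, 40.3% and 45.4% of all genes were. Their median differences were 0.19, 0.01 and -0.51. In double against oncogene 0 of 25 were higher, with a median of -0.75, against 53.2% of all genes. At an unadjusted p below 0.05 there were 14 of 25, against 3.17% of all genes, and no gene of the array was called by limma. E2f2, an S-phase transcription factor, averaged 5.25 ± 0.08 in oncogene and 4.80 ± 0.09 in control arrays (SD) and rose by 0.45 ± 0.10 (limma adjusted p = 0.0301), its control mean lying within the background range (1.52% of all genes were called there). Tyms, thymidylate synthase, averaged 5.86 ± 0.31 in double and 6.35 ± 0.16 in control arrays (SD) and fell by 0.50 ± 0.14 on the log2 scale (limma adjusted p = 0.0495).

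Among the marker lists, 3 genes were called. Of 13 fibroblast markers 1 was called in oncogene against control (10 of 13 higher) and 2 in double against control (7 of 13 higher, median difference 0.01). Of all genes 1.52% and 5.18% were called in these comparisons, and 43.8% and 45.4% were higher. Pdgfra, a growth factor receptor of fibroblasts, averaged 12.41 ± 0.31 in oncogene, 12.23 ± 0.31 in double and 10.44 ± 0.99 in control arrays (SD). It rose by 1.97 ± 0.45 in oncogene (limma adjusted p = 0.0335) and by 1.78 ± 0.41 in double arrays (limma adjusted p = 0.0182). Fn1, which encodes fibronectin, averaged 14.22 ± 0.60 in double and 13.31 ± 0.32 in control arrays (SD) and rose by 0.91 ± 0.24 (limma adjusted p = 0.0330). Of 8 leukocyte markers only the macrophage gene Cd68 was called, at 6.85 ± 0.33 in double and 6.05 ± 0.26 in control arrays (SD, limma adjusted p = 0.0393). In that comparison 3 of the 8 were higher and 5 lower, with a median difference of -0.08, and the list mean per array ran from 5.66 to 6.02 in double and from 5.57 to 5.81 in control arrays.

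All 7 epithelial markers had higher means in double arrays than in oncogene, Wt1-null and control arrays, where 53.2%, 58.0% and 45.4% of all genes did, and none was called by limma. At an unadjusted p below 0.05 there was 1 of 7 in each of these comparisons. The mean of the list per array ran from 5.91 to 6.54 in oncogene, 5.99 to 6.27 in Wt1-null, 5.96 to 6.93 in double and 5.96 to 6.24 in control arrays. Double replicates 4 and 5 were the highest, at 6.92 and 6.93. The part of the fibroblast, leukocyte and epithelial markers in the members' differences was not tested.

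The genes whose levels followed each member most closely over the 22 arrays are given as a description, with Pearson's r over arrays that share groups and processing. For Myc they were Plaur (0.932), the urokinase receptor, Tnfrsf12a (0.919) and Tll1 (0.910). After group means were subtracted the closest to Myc were F3 (0.921), which encodes tissue factor, Coq10b (0.921) and Plaur (0.906). For Max they were Sptlc1 (0.848), Ube2d1 (0.842), a ubiquitin-conjugating enzyme, and Ube4a (0.749).

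For Mnt the closest genes were Rundc1 (0.958), Camta2 (0.958) and Top3b (0.955), and for Mxi1 Ccdc28a (0.939), Ccng2 (0.904), which encodes cyclin G2, and Serpini1 (0.870). With group means subtracted Gadd45a (0.908) stood among the closest to Mxi1. Mxd3, by its probe set 1448878_at, was followed most closely by Nrm (0.948), Zbtb8a (0.919) and Arsi (0.917). Mxd4, by 1434378_a_at, was closest to Rab3gap1 (0.851), Cd99l2 (0.839) and Zfp27 (0.835). Mxd1 was closest to Inpp1 (0.886), Zkscan14 (0.873) and Dnajb2 (0.865), and Mycn, by 1425923_at, to Lpcat4 (0.911), Ppp6r2 (0.905) and Ccdc167 (0.899).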

How the data were processed

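Total RNA of 22 MEF samples was hybridized to Affymetrix mouse arrays. The authors deposited log2 values normalized by RMA in Affymetrix Expression Console, per the submitters' processing notes, and the software version is not given in the sources used here. RMA subtracts background, gives all arrays 1 distribution and summarises probes, so it compresses differences near the background and would hide a shift shared by most transcripts. Precision is limited by how many arrays there are. The name of the mutant oncogene is not reported here. Of 6 oncogene arrays in the design text 5 were analysed here.

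Of 45101 probe sets 64 controls were left out. The platform annotation named 1 gene for 34945 probe sets, several for 932 and none for 9160, and 34741 of the first matched RefSeq by gene ID. Means of 4 groups were fitted to all 22 arrays with limma 3.58.1 (lmFit, eBayes) in R 4.3.3 and p-values adjusted by Benjamini-Hochberg over 45037 probe sets within each comparison, called below 0.05. All member probe sets are named, and from each other list up to 4 called genes with the smallest p per comparison. For likeness the 3 genes with the highest r were named, among brightest probe sets with a mean of at least 6, clone names left out. Members and lists were chosen with earlier results of these data known, and the alternatives are in the closing section. The fit was tested on simulated data. Replicate numbers were not used to pair the arrays in the main fit. Of 28 same-numbered pairs 12 had correlated deviations above 0.1, and no 2 groups had all pairs above it. Between oncogene and double arrays 4 of 5 pairs were above it (highest 0.78), and between Wt1-null and double arrays 3 of 5 (highest 0.6). Between double and control arrays 0 of 5 were. Whether some same-numbered arrays share an origin was not tested.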

Additional observations from a re-analysis of the deposited data

Results flagged for a closer look

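In 4 of 76 groups of arrays, 1 array of a member probe set lay far from the others of its group by Dixon's test, and chance alone gives about 1 in 20. Mnt probe set 1418192_at read 10.31 in double replicate 4, with the next array at 9.63 and the lowest at 9.27. This array also had the lowest mean correlation with all others (0.940), and the rise of Mnt in double against control was 0.62 ± 0.11 without it and oncogene replicate 4 (limma adjusted p = 0.00339). Mxi1 probe set 1425732_a_at read 8.18 in double replicate 5, with the next array at 7.64. Max probe set 1423501_at read 7.69 in Wt1-null replicate 5, with the next at 7.16. Mxd1 probe set 1455104_at read 6.59 in oncogene replicate 5, with the next at 7.04. None of these 3 probe sets had a called difference between groups.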

How the results depend on the processing

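The rise of Mycn probe set 1417155_at in double against control was held in all 22 fits that left out an array each (0.68 to 0.82, limma adjusted p from 0.00509 to 0.0490). The other calls were not. Mxd4 1422574_at in oncogene against control ran from -1.19 to -0.83 and was lost in 15 of 22, held without oncogene replicate 1 or 4, Wt1-null replicate 1 or 2 or double replicate 1, 4 or 5. In double against control Mxd3 ran from -0.92 to -0.76 (lost without double replicate 3 or 5 and control replicate 2, 3 or 4), Mxd4 from -0.96 to -0.77 (lost without double replicate 3, 5, 6 or 7 or any control) and Mnt from 0.62 to 0.82 (lost without any of control replicates 1 to 4). Counts of called member probe sets ran, against control, from 0 to 2 in oncogene, 0 to 0 in Wt1-null and 1 to 4 in double arrays. They ran from 0 to 0 in double against oncogene, 0 to 2 in double against Wt1-null, 0 to 1 in oncogene against Wt1-null, 0 to 0 in the interaction and 0 to 3 in the F-test, where Mycn was lost without control replicate 3 or 4 (F from 9.50 to 16.50).

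With the brightest probe set of each gene the differences turned to 0.03 for Mxd4 in oncogene against control, -0.10 for Mycn and 0.08 for Mxd4 in double against control, because other probe sets then stand for these genes, and 0, 1 and 0 members were called in oncogene against control, double against control and the F-test. Of 18193 genes 371, 1078 and 549 were called there. Averaging a gene's probe sets gave 0, 0 and 0 members, where 270, 934 and 456 of 18193 genes were called. Array weights called more members and more of all probe sets. Against control they called 3 members in oncogene, 5 in Wt1-null and 8 in double arrays. Of all 45037 probe sets 5795, 8482 and 10791 were called there, in place of 483, 19 and 1805. They called 4 members in double against Wt1-null, 1 in oncogene against Wt1-null and 2 in the interaction. Of all probe sets 4785, 831 and 1121 were called there. In the F-test 9 members were called, where 12521 of all probe sets were called in place of 828. A fit of only the groups compared called 1 member in Wt1-null against control, where 523 of all probe sets were called in place of 19. The sets of accession numbers as a fixed or random block called 0 members in the F-test, where 582 and 624 of all probe sets were called. The largest set alone called 0 in oncogene against control and 2 in double against control. Of all probe sets 437 and 1165 were called there. Without Wt1-null replicate 2 and double replicate 2, 2 members were called in oncogene against control and 1 in double against Wt1-null. In oncogene against Wt1-null 1 was called and in the F-test 2. Of all probe sets 690, 1122, 305 and 1583 were called in these 4 tests. Without oncogene replicate 4 and double replicate 4 the F-test called 3 members and 1390 of all probe sets. With Wt1-null replicates 3 and 4 averaged, 0 members were called in oncogene against control, and 384 of all probe sets. The Xist level as a covariate, chosen after seeing the data, called 0 in oncogene against control and 1, Mycn at 0.76 (limma adjusted p = 0.0319), in double against control. Where no value above shows a cause, the cause was not tested. No member was called in double against oncogene under any alternative.

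Same-numbered arrays deviated together in only some pairs. With the replicate number as a block, 1 member was called in oncogene against control, 3 in double against control and 1 in the F-test (F = 25.75). Of all 45037 probe sets 567, 1941 and 727 were called. The 1 was Mycn at 0.82 ± 0.13 in place of Mxd4 at -0.94, and the 3 were Mycn at 0.84, Mxd3 at -0.90 and Mnt at 0.79, without Mxd4 at -0.75.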
